A study of Sus scrofa with 90 samples.

Results

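The genes described here are 8 genes of inflammatory and immune signalling, JAK1, NFKBIA, PTGS2, MIF, B2M, CD74, ORM1 and FTH1, followed in pig skeletal muscle from uninjured tissue through lesions of 4 ages. They were taken by symbol from the array's annotation, requiring 1 gene symbol per feature and a value in every column. That rule gave 9 features out of 15 listed under these symbols, since FTH1 has 2 measured features and the other genes 1 each. The other 6 (2 of JAK1, 2 of FTH1, 1 of B2M and 1 of CD74) are listed without a value and are not analysed here. The 9 features belong to the 8 genes among 121 named genes, and to the 1908 features that had values throughout, out of 4608 listed.

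Piglets received propylene glycol, a solvent used to carry injected drugs, into the Longissimus dorsi, the long muscle of the back. Injections were timed so that sites of 6 h, 2 d, 7 d and 21 d were present in the same animal, with a site that was never injected as control. The labels give 10 control samples, 10 lesions of 6 h and 10 of 2 d, and 9 each of 7 d and 21 d, from 10 pigs named C to L. The labels name no breed, sex or exact age, and no group received an injection of another fluid, so the response to the needle and the response to the solvent cannot be told apart. Each muscle sample was hybridised as cDNA with a radioactive label to 1 array.

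Tissue damage sets off inflammation through a small number of routes. Cytokines bind receptors that signal through Janus kinases such as JAK1 to STAT transcription factors. Danger signals free the transcription factor NF-kB from its inhibitor, which NFKBIA encodes, and NF-kB in turn drives NFKBIA and PTGS2, the inducible cyclooxygenase of prostaglandin synthesis. Invading leukocytes and regenerating fibres raise antigen presentation, to which B2M (the light chain of MHC class I) and CD74 (the invariant chain of MHC class II) belong. MIF is a cytokine stored in many cell types, ORM1 an acute phase protein of plasma, and FTH1 the heavy chain of the iron store ferritin.

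The values were deposited as logarithms of unstated base, so 1 log unit is a 2-fold difference if the base is 2 and a 2.72-fold difference if the logarithm is natural. All values below are quantile-normalized log units, and a value near 0 is not an absence of RNA. A difference is the first group minus the second, with the standard error (SE) of a linear model that holds the pig constant. A feature is called at an adjusted p below 0.05 (limma, Benjamini-Hochberg over the 1908 features). The link from feature to gene comes from an old annotation of the array that was not checked against sequence here, so each symbol stands for the feature listed under it.

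Some arrays stood apart. The 6 h array of pig F correlated at 0.24 with the mean of the other arrays in place and at 0.739 when moved by 384 features along the list, so it was out of register and was left out, which leaves 9 lesions of 6 h and 47 arrays. The other arrays had correlations of at least 0.718 in place. One of the columns for the 6 h lesion of pig J was a copy of the control of pig I and was left out too. The spread of values within an array, as an SD over features, was 0.976 ± 0.237 (SD, n = 10) in controls. In lesions it was 0.744 ± 0.0926 (n = 9) after 6 h, 0.805 ± 0.0985 (n = 10) after 2 d, 0.607 ± 0.158 (n = 9) after 7 d and 0.643 ± 0.196 (n = 9) after 21 d. Array spread thus moves with lesion age, and quantile normalization removes it by construction. Of the marker lists, muscle fibre genes had 71 measured features for 17 genes. No feature carried a symbol from the lists for neutrophils, lymphocytes, erythrocytes or regenerating muscle. The macrophage and adipocyte lists had 1 listed feature each without values, so the cells that bring inflammation into muscle are not measured by name on this array. In these bulk samples, fewer cells of a type and less RNA per cell cannot be told apart.

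JAK1 was higher than control at 6 h, 7 d and 21 d and stood closer to control at 2 d. It was the only one of the 8 genes called at more than 1 lesion age. PTGS2 had its highest group means at 6 h and 7 d, on a smaller scale, and was called only from 2 d to 7 d. MIF fell at 6 h, a call that held in 7 of 17 alternative analyses. The features of B2M, CD74, ORM1, NFKBIA and FTH1 were called at no lesion age against control.

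**Figure D1:**
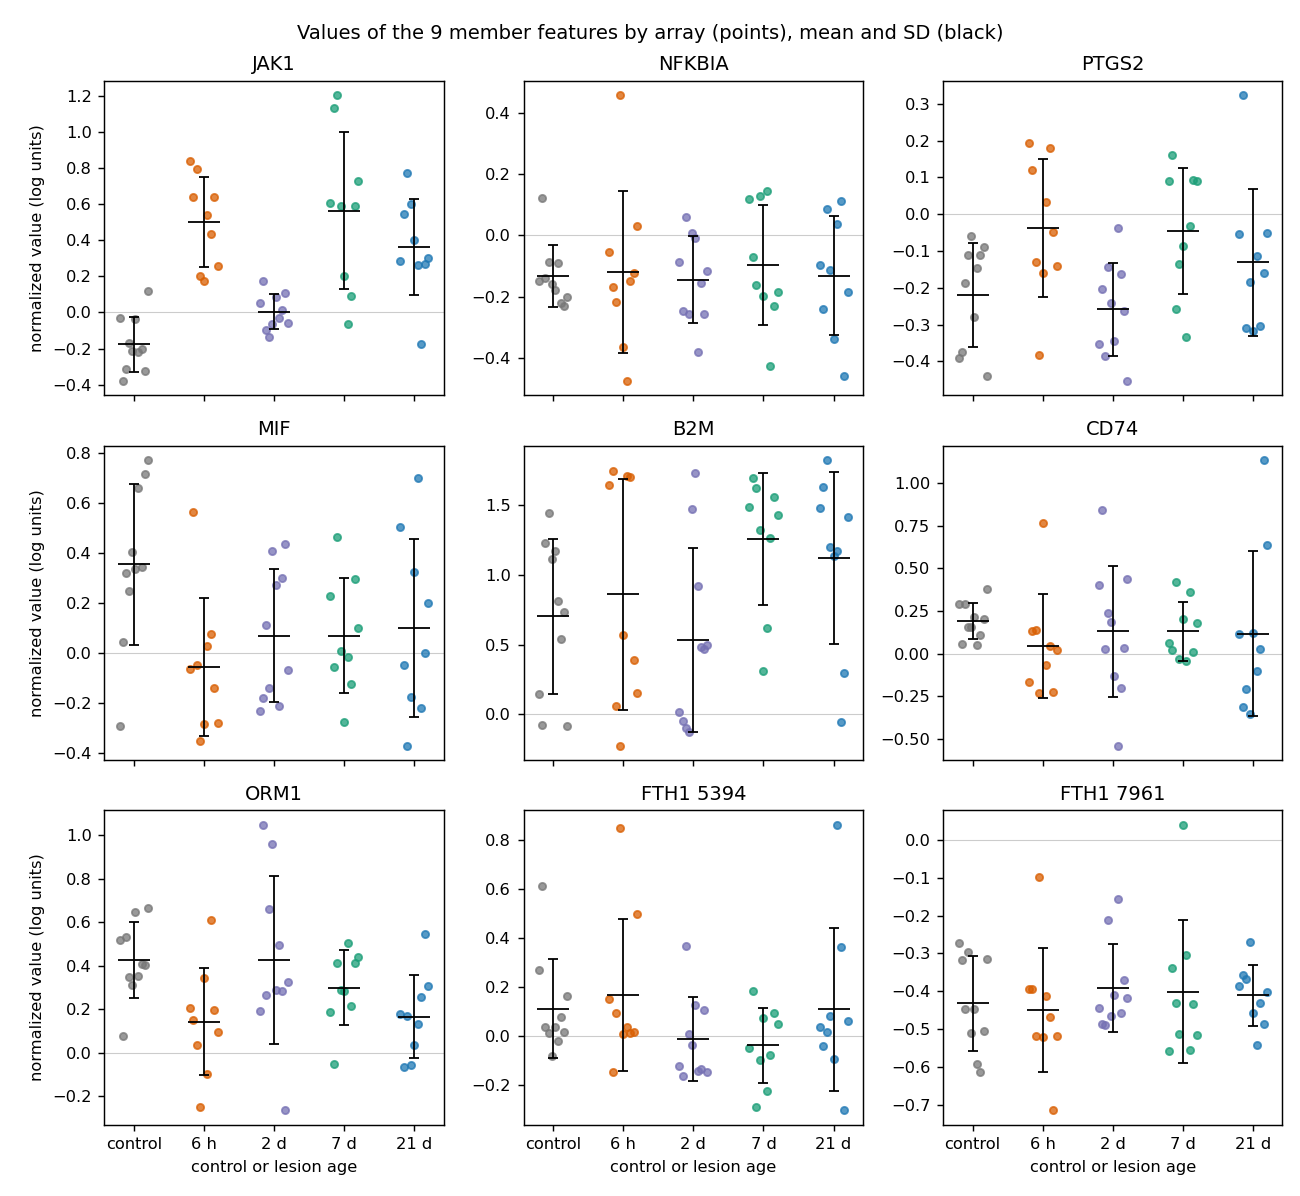
Normalized values (vertical axis, log units, each panel with its own scale) of the 9 features in every array, by control and lesion age (horizontal axis). Points are arrays, the black bar is the mean and the whiskers are the SD. JAK1 separates all 9 lesions of 6 h from the 10 controls, a separation that was not counted over the whole array. B2M spans the widest range (-0.23 to 1.83), and FTH1 7961 has a median of -0.43 over the 47 arrays.

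At 6 h, 2 of the 9 features were called (JAK1 higher, MIF lower), against 11.8% of all features. At 2 d the count was 0 of 9 by limma, against 0.734% of all features. An unadjusted p below 0.05 was found in 1 of the 9, MIF, and in 170 of all 1908 features. At 7 d, 1 of 9 was called (JAK1 higher), against 25.4% of all features. At 21 d, 1 of 9 was called (JAK1 higher), against 14.7%. Counts of 0 to 2 among 9 features are not set apart from these shares. The median difference of the 9 features was 0.02 after 6 h, -0.04 after 2 d, 0.02 after 7 d and 0.0061 after 21 d. Over all 1908 features it was -0.02, -0.02, -0.0089 and -0.00092. The median size of a difference, whatever its sign, was 0.17 in the 9 features and 0.12 over all features at 6 h, 0.06 and 0.09 at 2 d, 0.17 and 0.15 at 7 d, and 0.08 and 0.13 at 21 d.

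**Figure D2:**
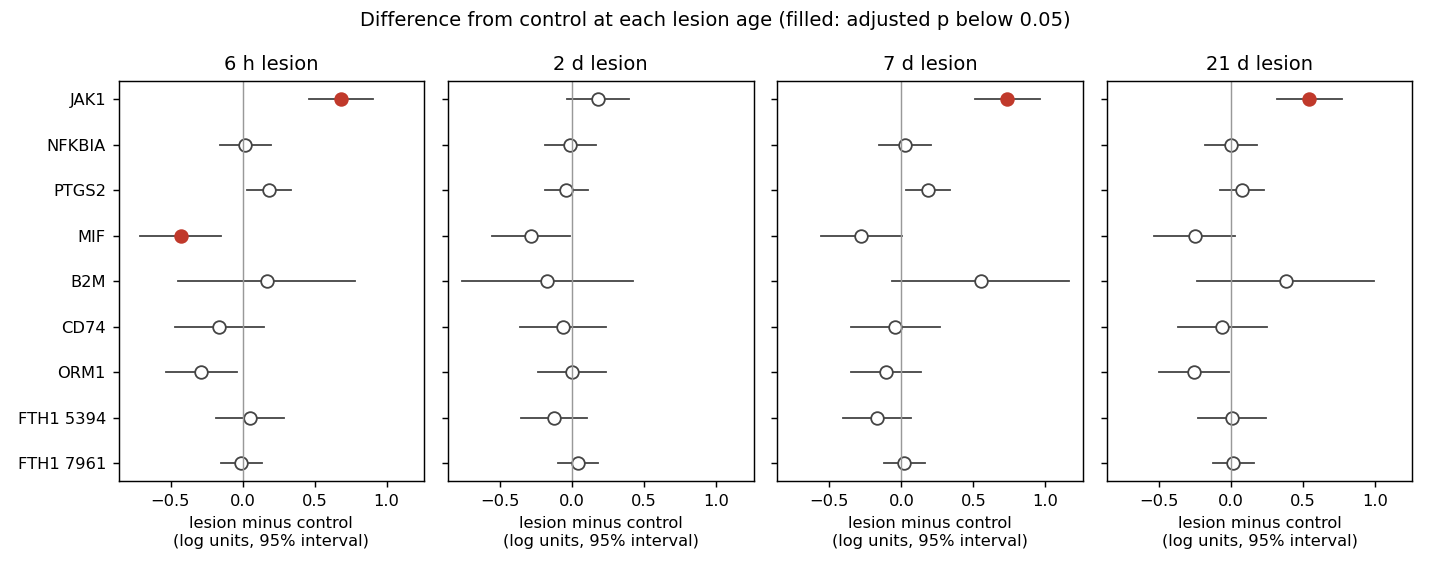
Difference from control (horizontal axis, log units) of the 9 features (vertical axis) at each lesion age. Circles are model estimates, lines are 95% intervals, and filled circles have an adjusted p below 0.05 by limma. JAK1 is filled at 6 h, 7 d and 21 d, MIF at 6 h, and no feature at 2 d.

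Among the signal transducers, JAK1 encodes a tyrosine kinase bound to the receptors of interferons and of the interleukin-6 family. In the 10 controls the JAK1 feature ran from -0.38 (pig D) through a median of -0.21 to 0.12 (pig L). In the 9 lesions of 6 h it ran from 0.17 (pig H) through 0.54 to 0.84 (pig C). Every 6 h lesion was above every control, so these groups do not overlap. How many features of the whole array separate these groups in the same way was not counted. Whether such a separation is unusual was therefore not tested. The difference was 0.68 (SE 0.111, 95% interval 0.46 to 0.91, adjusted p = 2.864e-05 by limma), with a rise in 9 of 9 pigs. This would be 1.61-fold in base 2 and 1.98-fold on the natural scale.

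In the 10 lesions of 2 d JAK1 ran from -0.14 (pig F) through -0.01 to 0.17 (pig D). All 10 lay below every 6 h lesion, and 1 lay above every control. Separation of 2 d from 6 h was likewise not counted over the whole array. The difference of 2 d from 6 h was -0.50 (SE 0.111, adjusted p = 0.00249 by limma), in 9 of 9 pigs, and 1 of the 9 features was called in that step against 6.18% of all features. Against control the 2 d level was at 0.18 (SE 0.107, 95% interval -0.04 to 0.40, adjusted p = 0.602 by limma), with 9 of 10 pigs above their own control. The interval thus leaves room for a rise of up to 0.40 at 2 d.

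At 7 d JAK1 ran from -0.06 (pig H) through 0.59 to 1.20 (pig E), the highest value of all 47 arrays. Of the 9 lesions, 7 lay above every control. The others were pigs H and I, at -0.06 and 0.09. The level was above control by 0.74 (SE 0.111, 95% interval 0.51 to 0.96, adjusted p = 3.481e-06 by limma) in 8 of 9 pigs, and above that at 2 d by 0.55 (SE 0.111, adjusted p = 0.000337 by limma) in 8 of 9 pigs. The exception was pig H in both cases. The SD between lesions was 0.435 at 7 d, against 0.099 at 2 d and 0.154 in controls.

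At 21 d JAK1 ran from -0.17 (pig I) through 0.30 to 0.77 (pig E). Of the 9 lesions, 8 lay above every control, all but that of pig I. The level was above control by 0.54 (SE 0.111, 95% interval 0.32 to 0.77, adjusted p = 0.000618 by limma) in 9 of 9 pigs. It was at -0.19 against 7 d (SE 0.115, 95% interval -0.42 to 0.04, adjusted p = 0.653 by limma). In that last step 0 of the 9 features were called, against 0.681% of all features. None of the 9 had an unadjusted p below 0.05 in that step, against 163 of all 1908 features.

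These 5 calls of JAK1 (6 h, 7 d and 21 d against control, 2 d against 6 h, and 7 d against 2 d) held in all 17 alternatives run for each, 10 of which left out 1 pig. The highest adjusted p by limma was 0.00113 at 6 h, 0.00305 at 7 d, 0.0273 at 21 d, 0.0368 for 2 d against 6 h and 0.0319 for 7 d against 2 d. With array spread in the model the JAK1 differences from control were 0.64 at 6 h, 0.68 at 7 d and 0.49 at 21 d. On the table values, which keep the unequal array spreads, they were 0.82, 0.72 and 0.59. With the 6 h array of pig F kept, the 6 h difference was 0.59. Of its 10 nearest measured neighbours on the feature list, 1 was called at 7 d and 0 at 6 h, 2 d or 21 d by limma, with a median difference of 0.03 at 6 h and 0.0061 at 7 d.

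**Figure D3:**
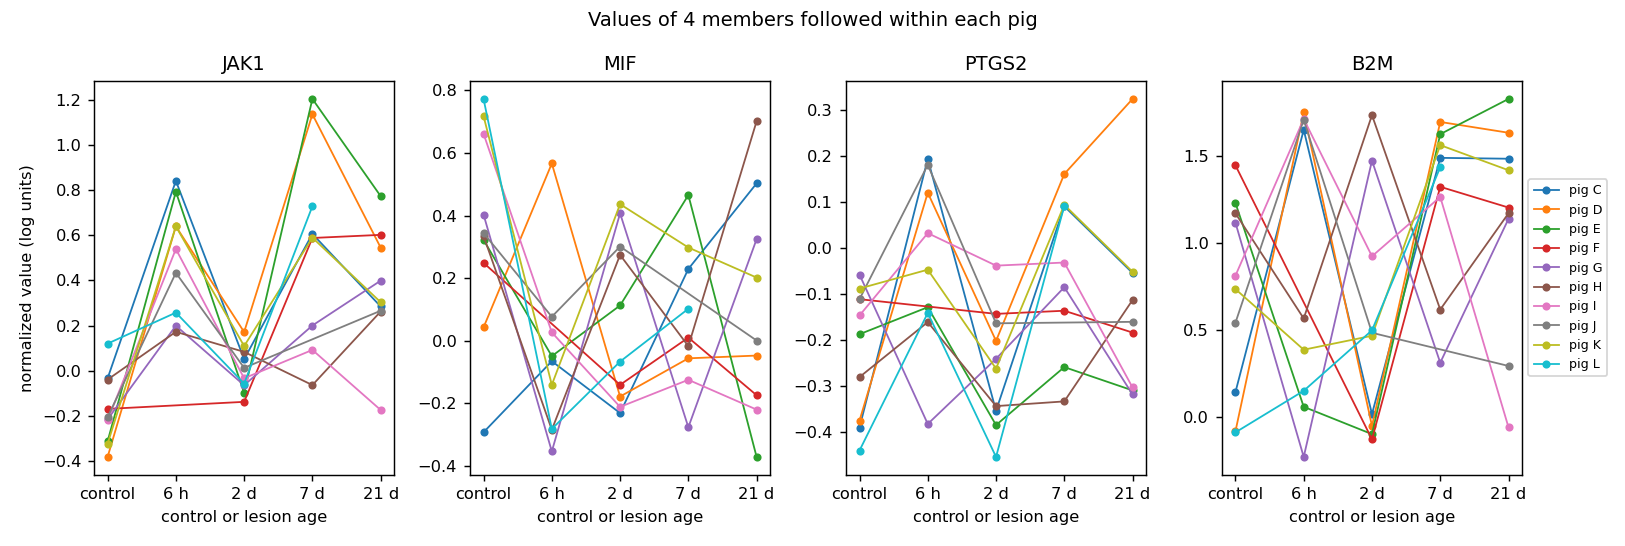
Normalized values (vertical axis, log units, each panel with its own scale) of JAK1, MIF, PTGS2 and B2M in control and in lesions of 4 ages (horizontal axis), joined within each pig. A line runs straight past a missing array (pig F at 6 h, pig J at 7 d). JAK1 falls from 6 h to 2 d in all 9 pigs with both arrays, while the lines of B2M cross one another between most ages.

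Other named features followed JAK1 over the arrays. After each pig's mean was subtracted, the highest correlations with JAK1 among 205 named features of other genes were those of UGP2 (0.74), which makes UDP-glucose, of feature 7944 of MYLPF, a fast myosin light chain (0.74), and of XIRP2, an actin-binding protein of myofibril junctions (0.72). The median over the 205 features was -0.09 and the 95th percentile 0.53. The 47 arrays share pigs and lesion ages, so this is a description of like profiles. Against control the MYLPF feature was at 0.86, 0.21, 1.15 and 0.62 at 6 h, 2 d, 7 d and 21 d. XIRP2 was at 1.21, 0.08, 2.08 and 2.22. UGP2 was at 0.43, 0.28, 0.68 and 0.49. All 3 were called at 6 h, 7 d and 21 d by limma, and had their smallest difference at 2 d, as JAK1 did. The 3 were picked for their correlation with JAK1 over these same arrays, so this likeness was largely fixed by the choice. The other MYLPF features did not share the profile of feature 7944 as a set. At 7 d, some of them were called lower than control by limma, with differences from -0.58 to -0.23. Another was called higher, at 0.75, and the rest were not called. No other gene of the JAK-STAT list, which held 34 symbols, was on the array under its symbol.

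NFKBIA encodes the inhibitor that holds NF-kB in the cytoplasm, and its transcription is a usual mark of NF-kB activity. The NFKBIA feature had a mean of -0.134 ± 0.102 (SD, n = 10) in controls. In lesions it was -0.119 ± 0.264 (n = 9) after 6 h, -0.144 ± 0.141 (n = 10) after 2 d, -0.0979 ± 0.195 (n = 9) after 7 d and -0.132 ± 0.194 (n = 9) after 21 d. The groups overlap throughout. Its differences from control lay between -0.01 and 0.02, with adjusted p from 0.879 to 0.992 by limma. The 95% intervals bound a change at 6 h to between -0.16 and 0.20, and at 7 d to between -0.16 and 0.20. The largest rise from the own control was 0.61, in pig G at 6 h, whose lesion stood at 0.46. No other gene of the NF-kB list of 29 symbols was on the array under its symbol.

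PTGS2 encodes cyclooxygenase-2, the inducible enzyme that starts prostaglandin synthesis. In controls the PTGS2 feature ran from -0.44 (pig L) through -0.17 to -0.06 (pig G). At 6 h it ran from -0.38 (pig G) through -0.05 to 0.19 (pig C), with 5 of 9 lesions above every control. The difference at 6 h was 0.18 (SE 0.0758, adjusted p = 0.106 by limma), with a higher value in 8 of 9 pigs. The exception was pig G, and without pig G the 6 h difference was 0.25 (adjusted p = 0.0347 by limma). Over the 17 alternatives its adjusted p at 6 h ran from 0.0159 to 0.558, and 2 alternatives gave a call.

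At 2 d PTGS2 ran from -0.45 through -0.25 to -0.04, with a difference from control of -0.04 (SE 0.0732, adjusted p = 0.83 by limma). At 7 d it ran from -0.33 (pig H) through -0.03 to 0.16 (pig D), with 5 of 9 lesions above every control and a difference of 0.18 (SE 0.0758, adjusted p = 0.071 by limma). The PTGS2 feature rose from 2 d to 7 d by 0.22 (SE 0.0758, adjusted p = 0.0356 by limma), in 9 of 9 pigs. With JAK1 this made 2 of the 9 features called in that step, against 16.5% of all features. The PTGS2 call held in 7 of 17 alternatives (adjusted p from 0.00396 to 0.228). It was lost on table values (0.0877), with the 6 h array of pig F kept (0.05003), without the pig in the model (0.0564), with the local trend subtracted (0.228), with only these groups fitted (0.11), and without pig C, D, E, K or L (0.0557 to 0.135). At 21 d PTGS2 differed from control by 0.08 (SE 0.0758, adjusted p = 0.552 by limma), and its highest lesion was that of pig D at 0.32.

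With array spread in the model, PTGS2 was called at 6 h at 0.28 (adjusted p = 0.0159 by limma) and at 7 d at 0.33 (adjusted p = 0.00751 by limma). From 6 h to 2 d it was called at -0.25 (adjusted p = 0.0168 by limma). In the fit as reported that step was -0.22 (SE 0.0758, adjusted p = 0.0706 by limma) and was not called, and 2 of 17 alternatives called it. In the fit as reported PTGS2 was at 0.1844 at 7 d and 0.1838 at 6 h, a gap far smaller than the SE of either (0.0758). It was at 0.08 at 21 d and -0.04 at 2 d, and none of these differences from control was called. JAK1 also had its larger differences at 6 h and 7 d and its smallest at 2 d. PTGS2 was also called at 7 d on table values, at 0.28 (adjusted p = 0.0223), and without pig G, at 0.21 (adjusted p = 0.0499). These were the only calls at 7 d, 3 of 17 alternatives, with adjusted p from 0.00751 to 0.473 by limma. JAK1 and PTGS2 correlated at 0.55 over 47 arrays after subtraction of pig means. Of the 10 measured neighbours of PTGS2 on the list, 2 were called at 6 h and 3 at 7 d, with a median difference of 0.12 and 0.13. Over all features 11.8% were called at 6 h and 25.4% at 7 d, so these counts are not set apart. With the local trend along the list subtracted, the PTGS2 difference was 0.11 at 6 h and 0.11 at 7 d.

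The prostaglandin list held 17 symbols, of which 3 were measured, and 0 of the 3 were called at any lesion age by limma. Of their differences, 3 had an unadjusted p below 0.05 (PTGS2 at 6 h and 7 d, PTGS1 at 2 d). Over all 1908 features, 515 had such a p at 6 h, 170 at 2 d and 665 at 7 d. PTGS1, the constitutive cyclooxygenase, differed from control by 0.11 at 6 h, 0.34 at 2 d (SE 0.141, unadjusted p = 0.0223, adjusted p = 0.402 by limma), 0.12 at 7 d and 0.12 at 21 d. PTGDS, a prostaglandin D synthase, differed by at most 0.10. The highest PTGS1 estimate lay at 2 d, where the PTGS2 estimate was lowest, but neither was called. These genes were not compared with each other by a test.

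MIF, macrophage migration inhibitory factor, is a cytokine that many cells hold ready-made. It was the only measured gene of a list of 16 macrophage cytokine and chemokine symbols. In controls the MIF feature ran from -0.29 (pig C) through 0.34 to 0.77 (pig L). At 6 h it ran from -0.35 (pig G) through -0.07 to 0.57 (pig D). Apart from pig D, all 6 h lesions lay at or below 0.08, while only the controls of pigs C and D lay in that range. MIF fell at 6 h, with a difference of -0.43 (SE 0.138, 95% interval -0.71 to -0.15, adjusted p = 0.0343 by limma), in 7 of 9 pigs. The exceptions were pigs C and D, the pigs with the lowest controls. The fall would be 1.35-fold in base 2 and 1.54-fold on the natural scale.

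At the later ages MIF was not called. The difference was -0.29 at 2 d (SE 0.134, unadjusted p = 0.0391, adjusted p = 0.497 by limma), -0.28 at 7 d (SE 0.138, adjusted p = 0.145) and -0.25 at 21 d (SE 0.138, adjusted p = 0.244). It was negative in 8 of 10, 7 of 9 and 7 of 9 pigs. No step between ages was called for MIF, and from 6 h to 2 d it differed by 0.14 (SE 0.138, adjusted p = 0.63 by limma).

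The 6 h call of MIF held in 7 of 17 alternatives, with differences from -0.63 to -0.26 and adjusted p from 0.00536 to 0.291 by limma. It was lost with array spread in the model (-0.26, adjusted p = 0.291), without pig J's 6 h lesion and pig I's control (-0.38, adjusted p = 0.105), with only the compared groups fitted (-0.50, adjusted p = 0.0687), and without pig E, F, G, H, I, K or L (adjusted p from 0.0556 to 0.115). With array spread in the model the MIF difference at 7 d shrank to -0.03 and that at 21 d to -0.01. On table values the MIF difference at 7 d was called at -0.44 (adjusted p = 0.0256 by limma), as it was without pig C at -0.37 (adjusted p = 0.043).

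Over the arrays the named features most like MIF were feature 5345 of MYOZ1, a Z disc protein (0.60), feature 5922 of ENO3, the muscle enolase (0.59), and feature 5361 of TNNC2, fast troponin C (0.58). The median over 205 features was 0.02 and the 95th percentile 0.50. These features were picked for their correlation with MIF over these same arrays, so their likeness to it was largely fixed by the choice. The ENO3 feature differed from control by -0.48 after 6 h, -0.30 after 2 d, -0.46 after 7 d and -0.38 after 21 d, and TNNC2 by -0.37, -0.17, -0.33 and -0.36. Both were called at 6 h, 7 d and 21 d by limma (adjusted p at 6 h 0.000486 and 0.0064). MYOZ1 was at -0.47 at 6 h (adjusted p = 0.129) and was called at no age. Of the 71 muscle fibre marker features, 5 rose and 7 fell at 6 h, which is 16.9% called against 11.8% of all features. At 2 d 0 were called by limma, against 0.734%, and 8 had an unadjusted p below 0.05, against 170 of all 1908 features. At 7 d 5 rose and 19 fell (33.8% against 25.4%), and at 21 d 4 rose and 11 fell (21.1% against 14.7%). Several of these features share a gene, whether the list stands apart from the array was not tested, and neither was its part in the MIF and JAK1 results.

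**Figure D4:**
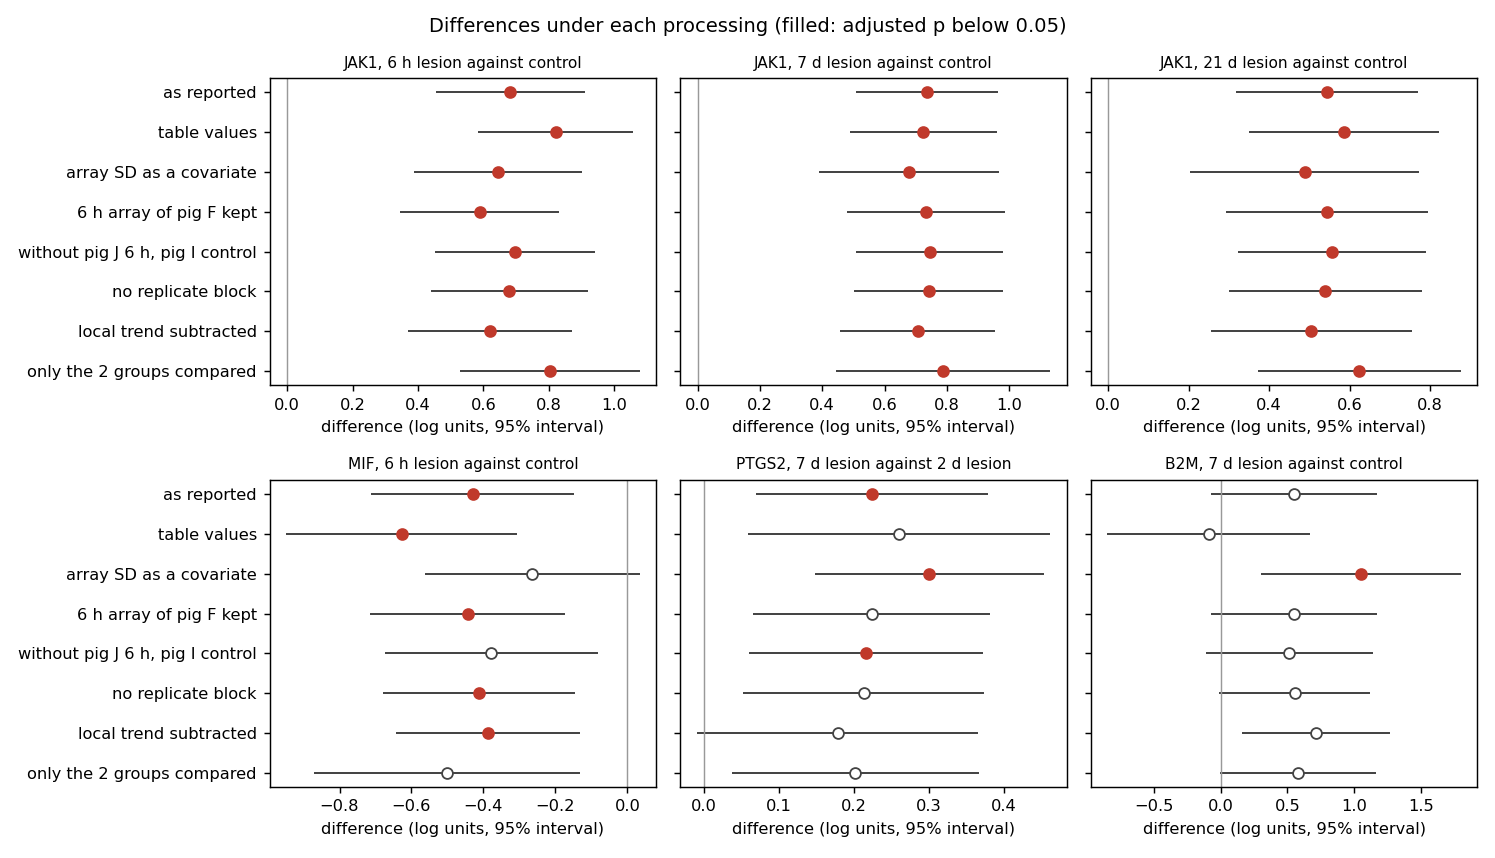
Estimated differences (horizontal axis, log units) with 95% intervals for 3 JAK1 comparisons and 1 each of MIF, PTGS2 and B2M, under the reported fit and 7 other ways of processing (vertical axis). Filled circles have an adjusted p below 0.05 by limma. All 24 JAK1 circles are filled, MIF keeps its sign and is filled in 5 of 8, and B2M at 7 d runs from -0.09 on table values to 1.05 with array spread in the model.

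Among the antigen presentation genes, B2M encodes beta-2-microglobulin, which MHC class I needs to reach the cell surface. The B2M feature had a larger SD within groups (0.639) than 99.5% of the tested features, whose median was 0.236. In controls it ran from -0.09 (pig L) through 0.77 to 1.45 (pig F). At 6 h it ran from -0.23 (pig G) through 0.57 to 1.75 (pig D), with pigs C, D, I and J at 1.65 to 1.75 and the other 5 at 0.57 or below. At 2 d it ran from -0.13 (pig F) through 0.48 to 1.73 (pig H). At 7 d it ran from 0.31 (pig G) through 1.43 to 1.69 (pig D), with all but pigs G and H at 1.26 or above. At 21 d it ran from -0.06 (pig I) through 1.20 to 1.83 (pig E). The ranges of all 5 groups overlap.

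B2M differed from control by 0.17 at 6 h (SE 0.303, adjusted p = 0.801 by limma), -0.17 at 2 d (SE 0.293, adjusted p = 0.822), 0.55 at 7 d (SE 0.303, adjusted p = 0.199) and 0.38 at 21 d (SE 0.303, adjusted p = 0.447). From 2 d to 7 d it differed by 0.72 (SE 0.303, 95% interval 0.11 to 1.33, adjusted p = 0.105 by limma), with a higher value in 7 of 9 pigs, all but G and H. Without pig G that step was 0.94 (adjusted p = 0.029) and without pig H it was 0.94 (adjusted p = 0.038). With array spread in the model B2M was called at 7 d against control, at 1.05 (SE 0.365, adjusted p = 0.0477 by limma), whereas on table values the difference was -0.09 (SE 0.371, adjusted p = 0.861). At 21 d the table values gave -0.15. The B2M differences at 7 d and 21 d thus changed sign between these treatments of array spread. B2M correlated with PTGS2 at 0.65 and with JAK1 at 0.53 over 47 arrays, the first being the highest of all pairs of these features.

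CD74 encodes the chain that guides MHC class II molecules and marks cells that present antigen. The CD74 feature was at 0.191 ± 0.106 (SD, n = 10) in controls. In lesions it was 0.0465 ± 0.305 (n = 9) after 6 h, 0.131 ± 0.385 (n = 10) after 2 d, 0.132 ± 0.172 (n = 9) after 7 d and 0.118 ± 0.484 (n = 9) after 21 d. No difference from control was called, with estimates from -0.16 to -0.04 and adjusted p from 0.563 to 0.873 by limma. The controls lay within 0.05 to 0.38, while single lesions reached 0.77 (pig H, 6 h), 0.84 (pig D, 2 d) and 1.14 (pig J, 21 d). At 6 h, 6 of 9 lesions lay below every control and 1 above, so the lesion values lie on both sides of the controls. Besides B2M and CD74, no other symbol of the antigen presentation list of 28 was measured.

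ORM1 encodes orosomucoid, an acute phase protein that the liver releases into plasma in inflammation. The ORM1 feature was at 0.427 ± 0.174 (SD, n = 10) in controls. In lesions it was 0.143 ± 0.248 (n = 9) after 6 h, 0.425 ± 0.386 (n = 10) after 2 d, 0.299 ± 0.171 (n = 9) after 7 d and 0.166 ± 0.192 (n = 9) after 21 d. The estimate against control was -0.29 at 6 h (SE 0.121, 95% interval -0.53 to -0.04, adjusted p = 0.117 by limma), with a lower value in 7 of 9 pigs. It was -0.0017 at 2 d, -0.11 at 7 d and -0.26 at 21 d (SE 0.121, adjusted p = 0.166), with a lower value in 8 of 9 pigs at 21 d. None was called. On table values the ORM1 differences were -0.37 at 6 h (adjusted p = 0.0451 by limma) and -0.40 at 21 d (adjusted p = 0.0228), and with only the compared groups fitted that at 6 h was -0.35 (adjusted p = 0.0465). Over all 17 alternatives the adjusted p ran from 0.0451 to 0.231 at 6 h and from 0.0228 to 0.301 at 21 d. At 2 d the SD was 0.386, with pig D at 1.05 and pig K at -0.27. No other symbol of the acute phase and complement list of 29 was on the array.

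FTH1 encodes ferritin heavy chain, which oxidises and stores iron and is rich in macrophages that clear red cells. Feature 5394 of FTH1 was at 0.114 ± 0.201 (SD, n = 10) in controls. In lesions it was 0.17 ± 0.31 (n = 9) after 6 h, -0.0126 ± 0.171 (n = 10) after 2 d, -0.0363 ± 0.154 (n = 9) after 7 d and 0.11 ± 0.332 (n = 9) after 21 d. Its differences from control ran from -0.17 at 7 d (SE 0.117) to 0.05 at 6 h, with adjusted p from 0.317 to 0.983 by limma. Feature 7961 of FTH1 was at -0.431 ± 0.125 (SD, n = 10) in controls and between -0.448 and -0.391 in the means of the lesions. Its differences ran from -0.0075 to 0.04, with SE up to 0.07 and adjusted p from 0.818 to 0.97 by limma. The 95% interval of feature 7961 at 7 d was -0.12 to 0.16. The features of FTH1 correlated with each other at 0.14 over 47 arrays, and the feature most like 5394 among the 9 was NFKBIA, at 0.55. GPX4, an enzyme that reduces lipid peroxides and the other measured gene of the iron and oxidative defence list, differed by -0.13 to 0.19 and was called at no age.

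The 2 measured markers of other cell types were not called at any age. FN1, fibronectin of matrix and fibroblasts, was at -0.19 after 6 h, -0.0085 after 2 d, -0.18 after 7 d and -0.23 after 21 d (adjusted p = 0.105 by limma at 21 d). PECAM1, an endothelial adhesion protein, was at -0.09, -0.07, -0.06 and -0.07, with adjusted p of at least 0.621 by limma.

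The 9 features also differed in how single animals stood. The 6 h array of pig G was the lowest or the highest of its group in 8 of the 9 features, lowest in MIF, B2M, ORM1, CD74 and PTGS2 and highest in NFKBIA and both features of FTH1. No other array was extreme in more than 6. Its correlation in place was 0.817. Without pig G the 6 h difference of JAK1 was 0.72 and that of MIF -0.39 (adjusted p = 0.079 by limma). In JAK1 the highest lesions at 7 d were those of pigs D and E and the lowest those of pigs H and I, while controls of the same pigs lay between -0.38 and -0.04.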

How the data were processed

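The authors deposited 1 table of log-scale values in 90 columns for 48 muscle samples. Its log base, background correction and normalization are not given in the sources used here. Per the series design, each sample was hybridised to 1 array that carries each spot in duplicate. Both columns of a sample were averaged (41 of 42 pairs were identical) and counted as 1 sample. Quantile normalization and limma 3.58.1 (R 4.3.3) were applied to the 1908 features with a value in every column, with group and pig in the model. Calls had a Benjamini-Hochberg adjusted p below 0.05. The test was checked on simulated data. The pig is the block because control and lesions came from the same animals (in the fit pig F lacks a 6 h, pig J a 7 d and pig L a 21 d array). Deviations from group means had a median correlation of -0.0236 over 88 pairs of arrays of the same pig and -0.00355 over 795 pairs of different pigs. The 6 h array of pig F and 1 copied column were left out. The genes, gene lists and tests were chosen with earlier results of these data known. All features of the 8 genes are named, with the 3 named features most correlated with each gene called against control. PTGS1, PTGDS, GPX4, FN1 and PECAM1 fall outside that rule and were chosen, after their values were seen, as the measured members of their lists. The alternatives were table values without quantile normalization, array SD as a covariate, pig F's array kept, 2 doubtful samples left out, no pig block, a running median over 51 features subtracted, only the compared groups fitted, and each pig left out.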

Additional observations from a re-analysis of the deposited data

Results flagged for a closer look

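In 6 of 45 groups of arrays (9 features in 5 groups), 1 array stood apart from the rest by Dixon's test, which chance does in about 1 in 20 groups. MIF was at 0.5667 in the 6 h lesion of pig D, with the next array at 0.0767. CD74 was at 0.7674 in the 6 h lesion of pig H, with the next at 0.1377. Feature 5394 of FTH1 was at 0.6117 in the control of pig D, with the next at 0.2725, and NFKBIA was at 0.1198 in the same control, with the next at -0.0861. PTGS2 was at 0.3235 in the 21 d lesion of pig D, with the next at -0.0519. Feature 7961 of FTH1 was at 0.0398 in the 7 d lesion of pig G, with the next at -0.304. Of these 6 values, 4 belong to pig D, and those of FTH1 and NFKBIA come from the same array. These features correlated at 0.55 over 47 arrays. The 45 groups share arrays, so they are not independent of one another.

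Differences between lesion ages themselves passed the test for JAK1 and PTGS2. JAK1 moved by -0.5009 from 6 h to 2 d and by 0.5546 from 2 d to 7 d. PTGS2 moved by 0.2241 from 2 d to 7 d.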

How the results depend on the processing

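The 5 JAK1 calls held in all 17 alternatives. Of the 441 differences under the alternatives that left out no pig in turn, 376 kept their direction and side of the threshold, 8 lost a call, 10 gained one and 4 reversed, while 43 changed sign that were smaller than their own SE as reported and called in neither setting. The reversed values were B2M on table values, -0.09018 at 7 d and -0.154 at 21 d, and feature 5394 of FTH1 with the local trend subtracted, 0.01873 at 2 d and 0.06617 at 7 d. With 1 pig left out, 551 of 630 kept both, 12 lost a call, 6 gained one and 61 changed sign, again smaller than their own SE and called in neither setting. The cause of these moves was not tested.

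Without the pig as a block, JAK1 at 6 h was at 0.6788, and the only call among these features that changed was PTGS2 from 2 d to 7 d (0.21, adjusted p = 0.0564 by limma). The number of the 9 features called at 6 h was 1 without pig J's 6 h lesion and pig I's control. It was 3 on table values (JAK1, MIF and ORM1). Of all 1908 features these settings called 148 and 496. At 7 d the number among the 9 was 3 on table values (744 of all 1908) and also 3 with array SD as a covariate (265 of 1908). At 21 d it was 2 on table values (708 of 1908), and from 6 h to 2 d it was 2 with array SD (144 of 1908). From 2 d to 7 d it was 1 on table values (127 of 1908), with pig F's array kept (235) and without the block (316). It was also 1 with the local trend subtracted (275) and with only the compared groups (211). With each pig left out in turn it ran from 1 to 2 at 6 h, 7 d and from 6 h to 2 d, and from 1 to 3 from 2 d to 7 d. Over all 1908 features these fits called 151 to 257 at 6 h and 369 to 491 at 7 d. They called 90 to 133 from 6 h to 2 d and 218 to 312 from 2 d to 7 d.

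Over all 1908 features, table values gave 496 calls at 6 h (103 higher, 393 lower), 28 at 2 d, 744 at 7 d (249 and 495), 708 at 21 d (178 and 530), 40 from 6 h to 2 d, 127 from 2 d to 7 d and 0 from 7 d to 21 d by limma (20 at an unadjusted p below 0.05). As reported, the splits were 132 and 93 at 6 h, 205 and 279 at 7 d, and 124 and 157 at 21 d. Array SD in the model gave 137 higher and 25 lower at 6 h, 265 at 7 d (179 and 86) and 111 at 21 d (93 and 18). Leaving out the doubtful pair gave 148 at 6 h. With only the compared groups there were 22 at 2 d, 172 at 21 d and 7 from 7 d to 21 d. Keeping pig F's array gave 177 at 21 d and 5 from 7 d to 21 d, and subtracting the local trend gave 175 and 5. With pigs left out the count ran from 169 (pig I) to 325 at 21 d, and from 3 (pig H) to 20 (pig D) from 7 d to 21 d, where leaving out pig E, G, I or K also moved it by over 1.5 times. The number of arrays limits the precision, and signal over background is unknown.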
